A study of Mus musculus with 50 samples.

Results

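Genes that mark the most primitive blood-forming cells of the mouse were followed through all 50 libraries of the study. They were 10 genes of the 33924 gene symbols in the count tables, chosen by name as stem cell genes, and all 10 were found in both tables. They code for transcription and chromatin regulators (Hlf, Mecom and Mllt3), for proteins of the cell membrane (Procr, Esam, Slamf1, Ly6a and Pdzk1ip1) and for proteins of the cytoplasm (Fgd5 and Ctnnal1). The haematopoietic stem cell sits at the top of a tree whose branches lead to myeloid, erythroid, platelet and lymphoid cells. Stem cell identity genes are those whose RNA is abundant in that cell and low in the progenitors it gives rise to, and several of them were found as surface markers or as reporters that label transplantable cells. Flt3 is a receptor tyrosine kinase of early progenitors that promotes lymphoid and myeloid fates, and activating mutations of it are common in acute myeloid leukaemia, often beside mutations of NPM1 or DNMT3A.

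The libraries fell into 16 groups. Flt3-mutant mice gave LSK cells and GMPs at 2, 4, 6 and 8 weeks (3 libraries per group), and WT mice gave both populations at 4 weeks (3 libraries each). Npm1 Flt3 mice gave 4 LSK and 4 GMP libraries, and Dnmt3a Flt3 mice gave 3 of each. Lineage-negative (Lin-) progenitors of Npm1 Flt3 mice were taken after 7 days of tamoxifen (TAM), given to remove the mutant Flt3 allele through Cre, or of vehicle (3 libraries each). LSK cells are lineage-negative, Sca-1-positive and Kit-positive marrow cells, a gate that holds the stem cells and multipotent progenitors, and GMPs are granulocyte-monocyte progenitors. All groups but the 2 of WT mice come from mice with a mutant Flt3 allele. The labels say that Cre, Dre or Flp activated the alleles and that mice were taken at a set time or once symptomatic, and they give neither the recombinase, the promoter that drives it, nor the age for single libraries. They do not say from which event the weeks are counted, and nothing says that libraries of a group came from separate animals, so p-values measure only the spread between libraries. WT libraries exist at 4 weeks only, so time and genotype cannot be told apart at 2, 6 and 8 weeks. WT and Flt3 libraries also carry different series of sample codes, as do the sorted Npm1 Flt3 and Dnmt3a Flt3 libraries. What a series stands for is not stated, so genotype cannot be told apart from it at any time, 4 weeks included.

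Levels are in CPM, the counts of a gene scaled to one common library total. Changes are log2 fold changes with their SE, estimated for the whole gene table at once by the quasi-likelihood method of edgeR, and the words rose and fell are kept for adjusted p-values (Benjamini-Hochberg, over all genes tested) under 0.05. Totals lay between 306571 and 8249140 counts in 29 of the 30 libraries of the WT and Flt3 table. Flt3 8-week GMP replicate 2 had 1942 counts and is left out of levels and figures. Flt3 8-week LSK replicate 3, with 306571 counts, showed 3 of the 10 genes, and a gene without a count there may lie anywhere up to 9.79 CPM. In the second table totals lay between 15053600 and 128057000. Dnmt3a Flt3 LSK replicate 1 and GMP replicate 2 carry sample codes that end in the letter of the other cell type, and they stay out of the fits and group values below. In LSK the Flt3 gene itself was higher in Flt3 mice by 0.47 ± 0.12 and in GMP by 2.40 ± 0.19, a difference between the populations of -1.92 (adjusted p = 3.26e-09), and after TAM it changed by -1.68 ± 0.39 against vehicle. Counts per gene do not separate mutant from normal Flt3 transcripts. Each library holds the RNA of a whole sorted population, so fewer cells of a type and less RNA per cell cannot be told apart.

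The promoter windows shown are those, among the genes that fell together in Flt3 LSK cells, that hold a short motif of factors known in blood stem cells. Each window runs from 250 bases before to 50 bases after the start of transcription, 5′ to 3′ on the gene's strand, from RefSeq on GRCm38.p6. Of the 10 genes, 8 matched an entry, with 10 windows in all. Capitals mark a motif read by GATA factors, with the letters TGATAA, and an E-box, with the letters CAGCTG. Both were searched on both strands and do not overlap one another in these windows.
Slamf1 (chr1:171766882-171767181, plus strand): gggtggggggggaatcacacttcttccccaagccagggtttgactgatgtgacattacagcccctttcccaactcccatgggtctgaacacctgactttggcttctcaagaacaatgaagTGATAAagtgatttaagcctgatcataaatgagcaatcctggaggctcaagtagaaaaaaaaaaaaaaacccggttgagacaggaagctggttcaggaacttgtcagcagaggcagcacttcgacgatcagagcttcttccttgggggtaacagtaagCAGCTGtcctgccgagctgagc
Mecom (chr3:30509710-30510009, minus strand): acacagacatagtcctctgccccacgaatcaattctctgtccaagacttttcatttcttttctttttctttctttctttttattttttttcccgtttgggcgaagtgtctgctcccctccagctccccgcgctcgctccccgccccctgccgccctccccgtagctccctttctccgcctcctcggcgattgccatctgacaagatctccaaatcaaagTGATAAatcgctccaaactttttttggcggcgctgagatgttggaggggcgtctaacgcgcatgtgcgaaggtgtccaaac
Mllt3 (chr4:88033358-88033657, minus strand): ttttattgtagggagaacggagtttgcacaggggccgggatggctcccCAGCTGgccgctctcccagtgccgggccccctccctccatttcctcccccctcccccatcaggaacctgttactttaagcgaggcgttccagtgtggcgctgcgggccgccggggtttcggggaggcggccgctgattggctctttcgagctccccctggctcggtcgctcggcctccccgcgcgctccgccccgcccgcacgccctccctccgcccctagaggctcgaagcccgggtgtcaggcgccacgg
Procr (chr2:155750967-155751266, plus strand): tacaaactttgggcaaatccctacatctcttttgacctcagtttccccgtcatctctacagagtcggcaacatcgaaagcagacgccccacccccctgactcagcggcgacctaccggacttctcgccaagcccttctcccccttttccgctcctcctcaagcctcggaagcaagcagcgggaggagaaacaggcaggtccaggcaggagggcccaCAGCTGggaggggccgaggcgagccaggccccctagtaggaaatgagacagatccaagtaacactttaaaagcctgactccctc
Pdzk1ip1 (chr4:115088458-115088757, plus strand): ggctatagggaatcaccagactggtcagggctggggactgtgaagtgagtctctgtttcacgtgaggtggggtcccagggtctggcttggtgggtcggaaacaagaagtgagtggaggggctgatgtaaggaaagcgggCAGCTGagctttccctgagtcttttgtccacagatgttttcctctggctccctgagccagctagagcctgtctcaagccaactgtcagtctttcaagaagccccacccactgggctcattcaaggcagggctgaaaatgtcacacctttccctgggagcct
TGATAA was in 2 of the 10 windows, those of Slamf1 and of the upstream start of Mecom, against 9.05% of 32851 windows of all genes. CAGCTG was in 4 windows, those of Slamf1, Procr, Pdzk1ip1 and one start of Mllt3, against 16.3% of all windows. The letters AGATAA (11.2% of all windows), the ETS-type GGAAGT (23.8%) and the STAT-type TTCNNNGAA (8.3%) were in none of the 10 windows. A match describes these letters only, not binding. On GRCm38 the gene of Slamf1 spans chromosome 1 from 171767131 to 171801184 and that of Procr chromosome 2 from 155751125 to 155755478. Mecom spans chromosome 3 from 29951296 to 30509759, and 3 genes lie on chromosome 4: Ctnnal1 from 56810935 to 56865375, Mllt3 from 87769925 to 88033407 and Pdzk1ip1 from 115088708 to 115093894. Fgd5 spans chromosome 6 from 91978827 to 92076005, Esam chromosome 9 from 37528089 to 37538319, Hlf chromosome 11 from 90336535 to 90390917 and Ly6a chromosome 15 from 74994877 to 74998031.

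The WT libraries set the baseline: which of the 10 genes separate LSK cells from GMPs when no allele is mutant. Of the 10 genes, 9 passed the filter on low counts and 8 of them were higher in WT LSK than in WT GMP, where 16.1% of all genes tested were higher. Genes could pass through the LSK libraries alone, so that count describes the set and is not support for it. Procr differed by 4.75 ± 0.79 (adjusted p = 5.94e-06), Mllt3 by 4.11 ± 0.58 (adjusted p = 2.38e-07), Esam by 3.60 ± 0.49 (adjusted p = 2.26e-07), Mecom by 3.53 ± 0.64 (adjusted p = 4.3e-05) and Hlf by 3.40 ± 0.50 (adjusted p = 5.09e-07). Slamf1 was higher by 4.36 ± 0.95 (adjusted p = 0.000465) and Pdzk1ip1 by 3.35 ± 0.45 (adjusted p = 5.12e-07). Ctnnal1 had 16.8, 14.8 and 11.1 CPM in WT LSK and 5.91, 6.97 and 2.68 CPM in WT GMP, a difference of 1.10 ± 0.58 that did not pass (adjusted p = 0.15). Ly6a codes for Sca-1, the antigen on which LSK cells are sorted, so its 4.55 ± 0.52 (adjusted p = 5.6e-07) checks the sort. Fgd5 was at 1.92 to 3.86 CPM in WT LSK and had no count in WT GMP, and did not pass the filter.

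**Figure D1:**
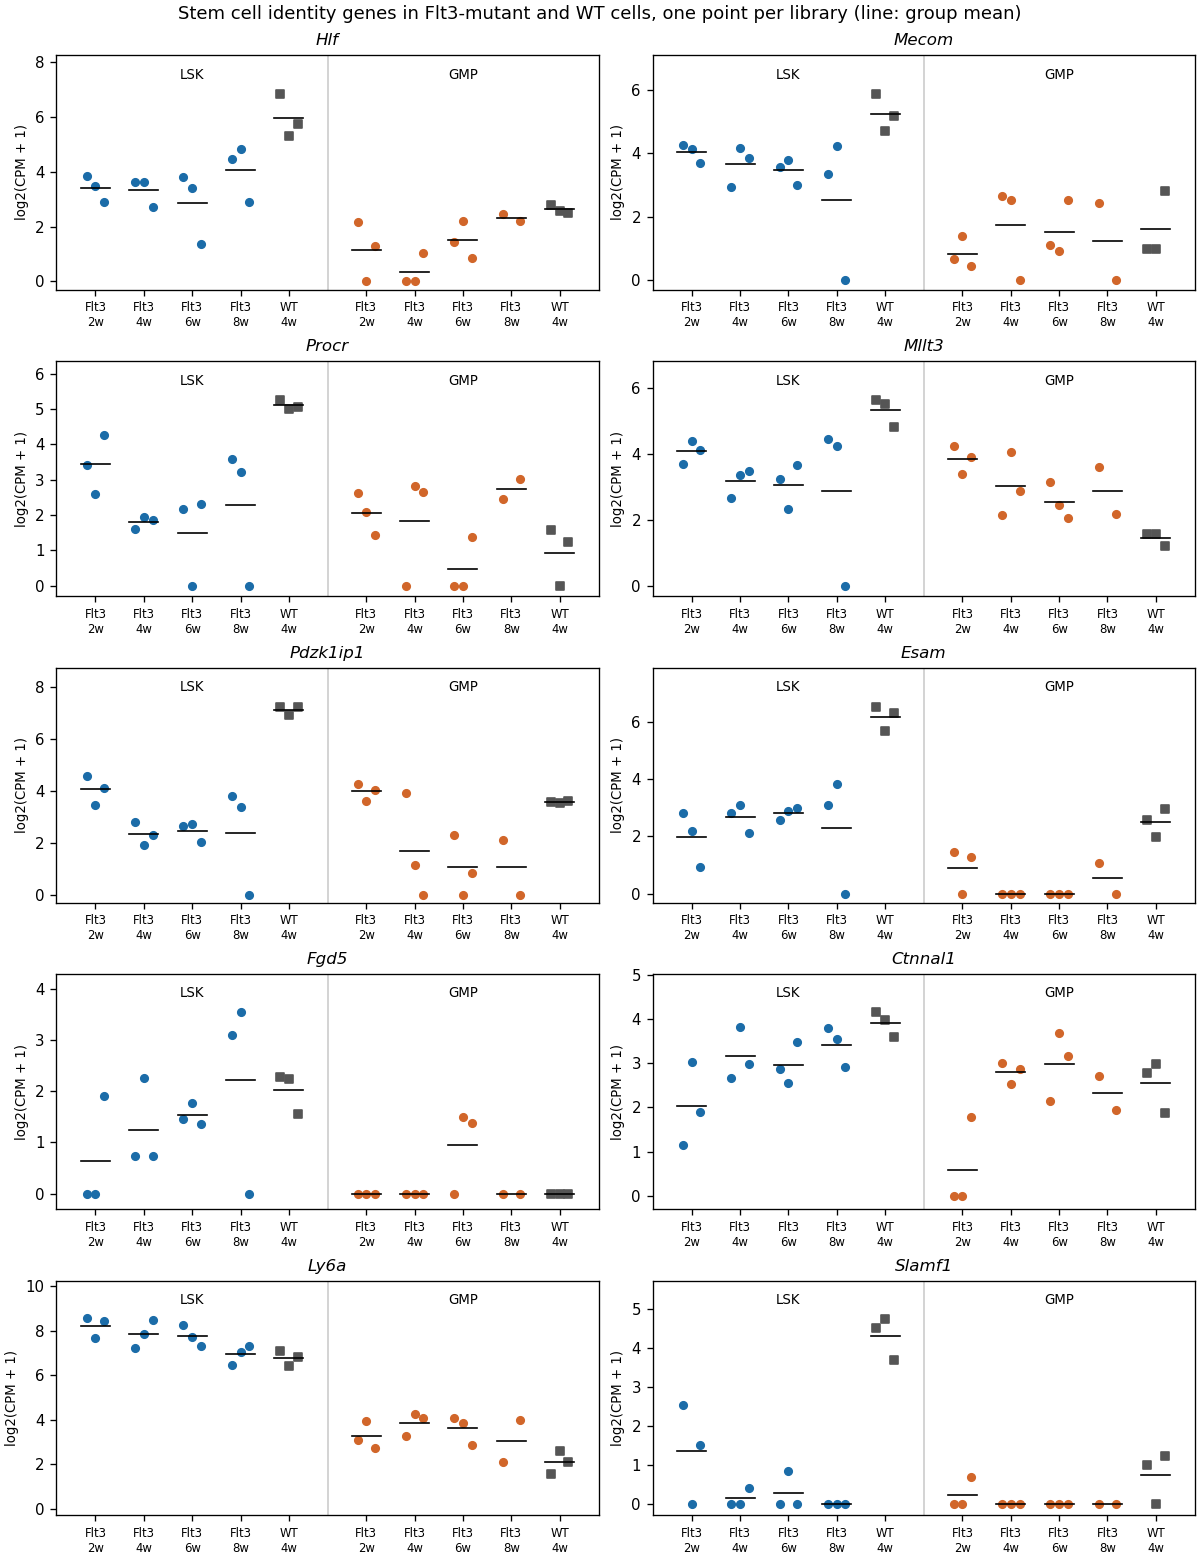
Levels of the 10 genes in every WT and Flt3 library as log2(CPM + 1), with LSK left and GMP right in each panel and Flt3 groups left of WT. Points are libraries and lines are group means; Flt3 8-week GMP replicate 2 is not drawn. For Hlf, Mecom, Procr, Mllt3, Pdzk1ip1, Esam and Slamf1 every Flt3 LSK point lies below every WT LSK point, and for Ly6a the points overlap.

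The next contrast asked what the 10 genes did in LSK cells of Flt3 mice. Of the 9 tested, 7 fell relative to WT LSK, where 8.07% of all genes tested fell, and 1 rose, where 6.89% rose. The 7 that fell were Hlf, Mecom, Mllt3, Procr, Esam, Slamf1 and Pdzk1ip1, and the one that rose was Ly6a. For all 7 the highest of 12 Flt3 LSK libraries was below the lowest WT LSK library, a separation found in that direction for 6.29% of all genes. Esam and Slamf1 passed the filter only through the WT libraries. Their part in these counts, and in those at single times below, describes the set and is not support for it. The median change of the 9 genes was -2.53, against -0.00 for all genes tested.

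Among the nuclear regulators, Hlf, a PAR bZIP transcription factor whose expression marks stem cells, had 13.3, 10.1 and 6.40 CPM at 2 weeks, 11.4, 11.2 and 5.61 CPM at 4 weeks, 13.0, 9.67 and 1.57 CPM at 6 weeks and 20.8, 27.3 and 6.52 CPM at 8 weeks in Flt3 LSK, against 113, 38.3 and 52.6 CPM in WT LSK. All 12 Flt3 libraries were below the lowest WT library, and the fall was -2.53 ± 0.32 (edgeR adjusted p = 6.84e-06). Mecom, which codes for the zinc-finger factor EVI1 that stem cells need for long-term maintenance, lay between 0 and 18.1 CPM with a median of 12.4 CPM in the 12 Flt3 LSK libraries, against 57.6, 24.7 and 35.0 CPM in WT LSK. It fell by 1.63 ± 0.30 (adjusted p = 0.00023). Its locus holds the antisense gene Mecomos over 42430 bases, and without a stated strand setting the reads of the pair cannot be told apart. Mllt3, which codes for the histone reader AF9, lay between 0 and 20.8 CPM with a median of 11.0 CPM in Flt3 LSK, against 48.8, 44.5 and 27.3 CPM in WT LSK, a change of -1.66 ± 0.31 (adjusted p = 0.00023).

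Of the surface proteins, Slamf1, the CD150 antigen used to sort long-term stem cells, was without a count in 8 of the 12 Flt3 LSK libraries. It had 4.84, 0 and 1.83 CPM at 2 weeks, 0, 0 and 0.33 CPM at 4 weeks, 0, 0.806 and 0 CPM at 6 weeks and no count at 8 weeks in Flt3 LSK, against 21.8, 26.0 and 11.9 CPM in WT LSK. The 12 Flt3 libraries held 8 Slamf1 counts in all and the 3 WT libraries 114. Relative to the library totals that was 41.1-fold lower in Flt3 LSK, with an exact 95% interval of 20.2 to 97.5 for counting error only (edgeR adjusted p = 2.51e-07). Of the 8 counts, 6 came from the 2-week libraries and 4 from replicate 1 of that group, without which the pooled level was 78.4-fold lower. At 2 weeks alone it was 10.0-fold lower (4.47 to 27.9), at 4 weeks 101.9-fold lower (17.9 to 4058) and at 6 weeks 97.8-fold lower (17.2 to 3894), the last 2 from a single count each. With no count at 8 weeks the exact 95% interval begins at 18.4-fold lower.

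Esam, an adhesion molecule of endothelium, platelets and stem cells, lay between 0 and 13.0 CPM with a median of 6.03 CPM in Flt3 LSK, against 90.9, 49.4 and 77.6 CPM in WT LSK, and changed by -3.65 ± 0.28 (adjusted p = 1.59e-10). Procr, the endothelial protein C receptor that marks the most potent stem cells, had 9.68, 5.06 and 18.3 CPM at 2 weeks, 2.00, 2.81 and 2.64 CPM at 4 weeks, 3.50, 0 and 3.92 CPM at 6 weeks and 11.0, 8.30 and 0 CPM at 8 weeks in Flt3 LSK, against 37.2, 30.9 and 32.3 CPM in WT LSK. The Flt3 libraries at 4 and 6 weeks were all under 4 CPM, while those at 2 weeks were all above 5 CPM. The change over the 4 times was -2.62 ± 0.37 (adjusted p = 6.23e-06). Esam and Procr are also made by endothelium. The 10 endothelial markers summed to 134 to 281 CPM in Flt3 LSK, against 316 to 368 CPM in WT LSK, and 3 of the 4 tested fell: Emcn by 1.76 ± 0.36, Plvap by 1.60 ± 0.46 and Egfl7 by 0.54 ± 0.12. Egfl7 alone had 274.4 to 306.0 CPM in WT LSK, while Cdh5, which codes for VE-cadherin, was at 0 to 0.384 CPM there and Flt1, Cldn5 and Ptprb had no count. The part of these genes in the fall of Esam and Procr was not tested.

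Ly6a went the other way. It had 379.9, 205.2 and 343.0 CPM at 2 weeks, 150.3, 232.1 and 353.4 CPM at 4 weeks, 302.5, 209.6 and 160.7 CPM at 6 weeks and 87.8, 131.7 and 159.8 CPM at 8 weeks in Flt3 LSK, against 134.1, 84.1 and 111.4 CPM in WT LSK. The groups overlap at 8 weeks, where both 87.8 and 131.7 CPM lie under the highest WT library. Over the 4 times Ly6a rose by 1.04 ± 0.31 (adjusted p = 0.046), and without the 2-week libraries the change was 0.78 with an adjusted p of 0.12. The call was also lost in 9 of 15 fits that each left out 1 library, with adjusted p up to 0.172 without WT LSK replicate 3.

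Pdzk1ip1, a small membrane protein that binds PDZ domains and tags dormant stem cells in reporter mice, had the smallest p of the 10 genes. It had 23.0, 10.1 and 16.5 CPM at 2 weeks, 6.01, 2.81 and 3.96 CPM at 4 weeks, 5.26, 5.64 and 3.13 CPM at 6 weeks and 12.9, 9.49 and 0 CPM at 8 weeks in Flt3 LSK, against 148.4, 121.2 and 150.6 CPM in WT LSK. The groups stood far apart, with 23.0 CPM in the highest Flt3 library and 121.2 CPM in the lowest WT library, and the change was -4.09 ± 0.22 (adjusted p = 1.91e-13). Ctnnal1, an alpha-catenin-like protein whose reporter labels stem cells, lay between 1.21 and 13.1 CPM with a median of 6.73 CPM in Flt3 LSK and overlapped WT LSK, with a change of -0.89 ± 0.38 that did not pass (adjusted p = 0.125). Fgd5, an exchange factor for the GTPase Cdc42 in endothelium and stem cells, lay between 0 and 10.7 CPM in Flt3 LSK, against 3.86, 3.71 and 1.92 CPM in WT LSK, and did not pass the filter. Its locus also holds an antisense gene, over 3724 bases.

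Markers of other cells moved beside these genes, and their part in the result was not tested. All 11 tested genes of the erythroid and megakaryocyte list were lower in Flt3 LSK, with summed levels of 359 to 719 CPM, against 2145 to 2578 CPM in WT LSK. All 8 tested macrophage markers were lower too, with sums of 7.26 to 58.1 CPM in Flt3 LSK, against 371, 747 and 2380 CPM in WT LSK. All 8 dendritic cell genes were higher in Flt3 LSK, and none of the 6 stromal genes passed the filter.

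The 4 times were then set against WT LSK one by one, all with the same WT libraries. At 2 weeks 4 genes fell, where 7.99% of all genes fell: Hlf by 2.50 ± 0.51, Pdzk1ip1 by 2.81 ± 0.33, Esam by 4.11 ± 0.49 and Slamf1 by 2.97 ± 0.81. Ly6a rose by 1.79 ± 0.38 (adjusted p = 0.00583), where 11.1% of all genes rose. At 4 weeks, the time that matches the WT mice, 7 genes fell, where 5.60% of all genes fell. Hlf changed by -2.93 ± 0.49 (adjusted p = 0.000322), Mecom by -1.68 ± 0.42 (adjusted p = 0.00833), Procr by -3.68 ± 0.59 (adjusted p = 8.27e-05), Mllt3 by -2.19 ± 0.44 (adjusted p = 0.00115), Pdzk1ip1 by -4.97 ± 0.37 (adjusted p = 2.13e-10) and Esam by -3.79 ± 0.43 (adjusted p = 5.26e-07). Slamf1 was the seventh gene, with 1 count in the 3 libraries at 4 weeks. Without Flt3 4-week LSK replicate 1 or WT LSK replicate 1, Mecom no longer passed (adjusted p = 0.064 and 0.0949). At 6 weeks the 7 genes that fell were again these, where 4.86% of all genes fell, and at 8 weeks 6 fell, where 4.74% did. At 8 weeks Mllt3 changed by -1.27 ± 0.44 (adjusted p = 0.0698) and Ly6a by 0.12 ± 0.40 (adjusted p = 0.913).

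Calls at 2 and 8 weeks moved with the scaling or with single libraries. The 20 most abundant genes took 15.0 to 20.6% of the counts in the 2-week Flt3 LSK libraries, against 6.41 to 6.88% in WT LSK. Scaled by library size alone, a setting chosen after the data were seen, 8 genes fell and 1 rose at 2 weeks, where 23.4% of all genes fell and 6.51% rose, while the median of all genes moved by -0.36. Slamf1 at 2 weeks lost its call without replicate 2 of that group (adjusted p = 0.0721). At 8 weeks only 3 genes fell when WT LSK replicate 1 was left out, with Hlf at adjusted p = 0.149, Mecom at 0.0641 and Procr at 0.057. Hlf at 8 weeks also missed the threshold without Flt3 8-week replicate 1 or 3, Mecom without replicate 1 and Procr without replicate 2, at adjusted p between 0.0507 and 0.0872.

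**Figure D2:**
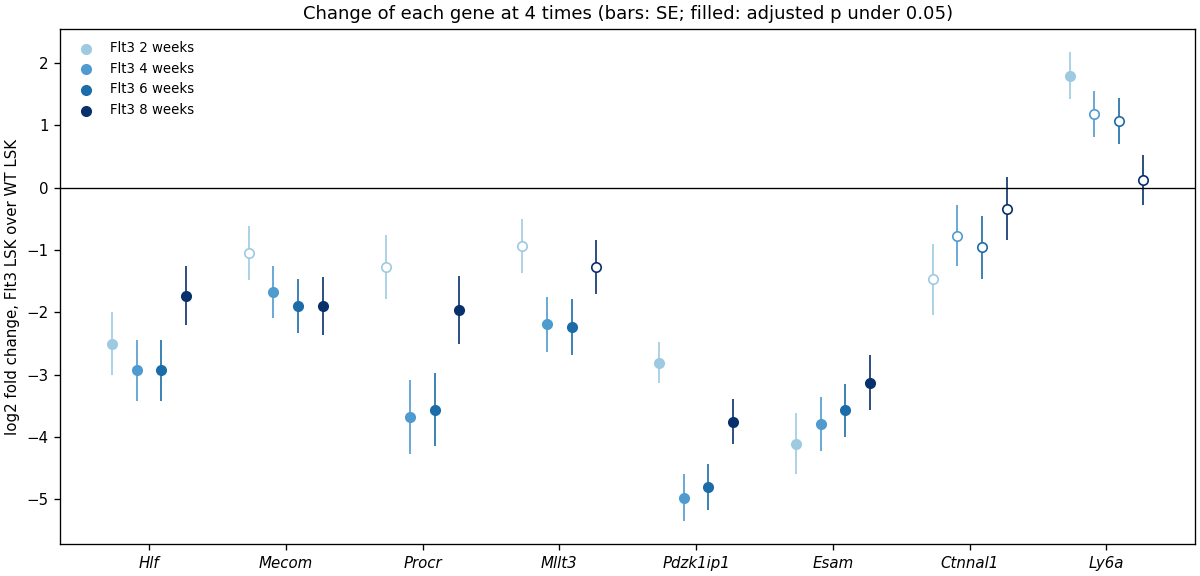
Log2 fold change of 8 genes in Flt3 LSK over WT LSK at 2, 4, 6 and 8 weeks from edgeR, with SE as bars and filled points where the adjusted p was under 0.05. Pdzk1ip1 and Procr are lower at 4 and 6 weeks than at 2 and 8 weeks; Fgd5 did not pass the filter and Slamf1, with almost no counts, is not drawn.

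Whether a gene differed among the 4 Flt3 times was tested directly in LSK. Procr (adjusted p = 0.0199) and Pdzk1ip1 (adjusted p = 0.00226) did, as did 10.8% of all genes tested. Both were lower at 4 and 6 weeks than at 2 weeks. In the same test all 8 dendritic cell genes and all 5 tested mast cell and basophil genes differed among the times, with dendritic sums of 11301 to 20773 CPM at 2 weeks, 1596 to 5172 CPM at 4 weeks, 2407 to 5113 CPM at 6 weeks and 4169 to 11720 CPM at 8 weeks, and their part was not tested. Procr lost that call when Flt3 2-week LSK replicate 3 was left out (adjusted p = 0.152). A straight slope over the weeks in Flt3 LSK called 0 of 7 tested genes with edgeR, where 2.70% of all genes had a slope. One gene, Ly6a, had an unadjusted p under 0.05, with a slope of -0.25 ± 0.06 per week (adjusted p = 0.0521), and DESeq2 called 1 gene.

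In GMPs most of the 10 genes were near the limit of detection, and 3 passed the filter when GMP libraries were fitted alone. Of these, 2 rose and 1 fell over the 4 times, where 13.1% of all genes rose and 13.2% fell. The 2 that rose, Mllt3 and Ly6a, held 8 and 17 counts in the WT GMP libraries together. They passed the filter only through the Flt3 libraries, so that count describes the set and is not support for it. Mllt3 had 17.8, 9.61 and 14.2 CPM at 2 weeks, 3.49, 15.7 and 6.31 CPM at 4 weeks, 7.95, 4.53 and 3.18 CPM at 6 weeks and 11.1 and 3.55 CPM at 8 weeks in Flt3 GMP, against 1.97, 1.99 and 1.34 CPM in WT GMP. All 11 Flt3 GMP libraries were above all 3 WT libraries, as for 6.75% of all genes, and the rise was 2.06 ± 0.59 (adjusted p = 0.00683). Mllt3 thus fell in Flt3 LSK and was called higher in Flt3 GMP, each against WT cells of the same gate. The GMP side rests on 8 WT counts and on that filter, so the opposite directions describe these levels and are not support for a difference. Markers of other cells moved in the GMP contrast too, and their part was not tested. All 8 granule genes were lower in Flt3 GMP, with sums of 14828 to 31485 CPM, against 45634 to 55538 CPM in WT GMP. All 7 tested dendritic cell genes were higher, with sums of 816 to 28286 CPM in Flt3 GMP, against 92.1 to 114 CPM in WT GMP. Of the erythroid and megakaryocyte genes 8 of 10 were lower, and of the macrophage markers 5 of 6.

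Pdzk1ip1 had 18.4, 11.2 and 15.6 CPM at 2 weeks, 14.0, 1.20 and 0 CPM at 4 weeks, 3.97, 0 and 0.795 CPM at 6 weeks and 3.34 and 0 CPM at 8 weeks in Flt3 GMP, against 10.8, 10.5 and 11.4 CPM in WT GMP. The 2-week libraries and one 4-week library lay within or above the WT range, and the other 7 lay below it. The change over the 4 times was -1.70 ± 0.55 (adjusted p = 0.0204), a call lost without any one of the WT GMP replicates 1, 2 and 3 (adjusted p = 0.061 to 0.0701). Along the weeks Pdzk1ip1 had a slope of -0.75 ± 0.16 per week (adjusted p = 0.00222) and Mllt3 of -0.29 ± 0.10 per week (adjusted p = 0.0446), where 9.27% of all genes had a falling slope. Without the 2-week libraries neither gene passed the filter, so neither slope was tested there. Mllt3 lost its call in 7 of the fits that left out 1 library. The 2-week GMP libraries stood apart in mast cell and basophil genes, with summed levels of 57179 to 70515 CPM, against 1282 to 1593 CPM in WT GMP; their part was not tested.

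Ly6a had 3.34 to 18.1 CPM in the 11 Flt3 GMP libraries, against 1.97, 4.98 and 3.35 CPM in WT GMP, and rose by 1.42 ± 0.50 (adjusted p = 0.0298), a call lost without Flt3 8-week replicate 3 or WT replicate 1 or 3 (adjusted p = 0.165, 0.126 and 0.099). At the matched 4 weeks Mllt3 was higher by 2.06 ± 0.71 (adjusted p = 0.04) and Ly6a by 1.77 ± 0.60 (adjusted p = 0.037), where 7.18% of all genes rose. DESeq2 called neither (adjusted p = 0.211 each). Without the near-empty library its adjusted p was 0.0595 for Mllt3 and 0.0515 for Ly6a, with changes of 2.09 and 1.80. Without that library edgeR lost both as well (adjusted p = 0.0528 and 0.0502). It also lost both without Flt3 4-week GMP replicate 2 or 3 or WT GMP replicate 1 or 3. Mllt3 was lost besides without Flt3 2-week GMP replicate 1 or 3 or WT GMP replicate 2. The other 7 genes did not pass the filter of the GMP fit. With all 30 libraries in one fit, 9 genes were tested, and in Flt3 GMP against WT GMP 1 rose, Mllt3, where 11.9% of all genes rose, and 3 fell, where 12.8% fell. Those that fell were Pdzk1ip1 (-1.72 ± 0.49, adjusted p = 0.00898), Hlf (-1.78 ± 0.58, adjusted p = 0.0182) and Esam (-4.33 ± 0.75, adjusted p = 2.38e-05), while Ly6a no longer passed (1.36 ± 0.60, adjusted p = 0.106). At 4 weeks that fit called Mllt3 higher (adjusted p = 0.0379), where 6.44% of all genes were, and Hlf (adjusted p = 0.0232) and Esam (adjusted p = 0.0049) lower, where 7.00% were, but not Ly6a (adjusted p = 0.123). Esam was at 0 in 8 of 11 Flt3 GMP libraries and at most 1.72 CPM, against 4.93, 2.99 and 6.71 CPM in WT GMP. Hlf was at 0 to 4.45 CPM in Flt3 GMP, against 5.91, 4.98 and 4.69 CPM in WT GMP, and Procr at 0 to 7.10 CPM, against 1.97, 0 and 1.34 CPM in WT GMP.

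The gap between LSK and GMP within Flt3 mice was set beside the same gap in WT mice. In Flt3 mice 4 of the genes were higher in LSK than in GMP, where 9.02% of all genes were. Hlf was higher by 2.66 ± 0.38 (adjusted p = 1.96e-07), Mecom by 2.75 ± 0.41 (adjusted p = 8.76e-07) and Esam by 4.29 ± 0.59 (adjusted p = 1.79e-07), and Ly6a, the gate's own antigen, by 4.23 ± 0.23 (adjusted p = 1.5e-12). Procr (0.88 ± 0.43, adjusted p = 0.169), Mllt3 (0.39 ± 0.27, adjusted p = 0.384) and Pdzk1ip1 (0.98 ± 0.39, adjusted p = 0.0813) did not pass in the Flt3 mice. The test of the difference itself, the Flt3 change in LSK minus that in GMP, passed for these 3 genes, where 5.83% of all genes passed in that direction. It was -3.87 ± 0.99 for Procr (adjusted p = 0.00669), -3.73 ± 0.65 for Mllt3 (adjusted p = 9.24e-05) and -2.37 ± 0.67 for Pdzk1ip1 (adjusted p = 0.0164). Procr held 4 counts in the WT GMP libraries together. The call for Procr was lost without Flt3 6-week GMP replicate 3, which leaves that group with no Procr count. The call for Pdzk1ip1 was lost without the 2-week libraries (adjusted p = 0.111) and without Flt3 GMP replicate 1 of 4, 6 or 8 weeks. For Hlf, Mecom, Esam, Ctnnal1 and Ly6a the difference did not pass, with estimates between -0.77 and 0.69. Slamf1 did not pass either, with an estimate below that range. It was poorly measured in GMP, with 3 counts in the WT libraries together and none in 10 of 11 Flt3 libraries.

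Mice with a second mutation were measured in the other table, which was not tested against WT because the kit used for each table is not given. In Npm1 Flt3 mice 3 genes were higher in LSK than in GMP, where 2.35% of all genes were. Mecom had 18.4, 33.0, 9.09 and 22.3 CPM in Npm1 Flt3 LSK, against 0.908, 2.91, 2.16 and 2.23 CPM in Npm1 Flt3 GMP, a difference of 3.16 ± 0.47 (adjusted p = 0.00128). Procr had 10.0, 6.55, 9.32 and 9.76 CPM in LSK, against 0.0202, 0.785, 0 and 0.0343 CPM in GMP, a difference of 5.32 ± 1.20 (adjusted p = 0.0198) that missed the threshold without Npm1 Flt3 GMP replicate 4 (adjusted p = 0.0517). Ly6a differed by 5.23 ± 0.26 (adjusted p = 1.12e-07). Mllt3 had 23.1, 23.8, 15.9 and 15.3 CPM in LSK, against 15.3, 6.09, 4.10 and 9.17 CPM in GMP, groups that nearly touch at 15.3 CPM, with a difference of 0.93 ± 0.39 (adjusted p = 0.21). Hlf, with 5.43, 12.4, 5.56 and 8.46 CPM in LSK and 1.75 to 4.16 CPM in GMP, differed by 1.21 ± 0.50 (adjusted p = 0.211).

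Pdzk1ip1, Esam, Fgd5 and Slamf1 were low in all sorted Npm1 Flt3 libraries, at most 5.65 CPM. Pdzk1ip1 had 1.20, 1.44, 2.50 and 2.26 CPM in LSK, Esam 2.21, 2.00, 5.35 and 0.0103 CPM, and Slamf1 0.837, 1.82, 0.534 and 0.0103 CPM. In Dnmt3a Flt3 mice only Ly6a was higher in LSK than in GMP, by 4.12 ± 0.35 (adjusted p = 2.41e-05), where 0.579% of all genes were higher. With 2 libraries a group that fit has little to go by: Mecom had 24.8 and 37.6 CPM in Dnmt3a Flt3 LSK, against 6.43 and 2.59 CPM in Dnmt3a Flt3 GMP, and a difference of 2.47 ± 0.65 (adjusted p = 0.0773). With the 2 conflicting libraries back at their titles, Mecom (2.39, adjusted p = 0.0103) and Mllt3 (1.69, adjusted p = 0.0376) joined Ly6a. The share of all genes higher in that fit is not given here.

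**Figure D3:**
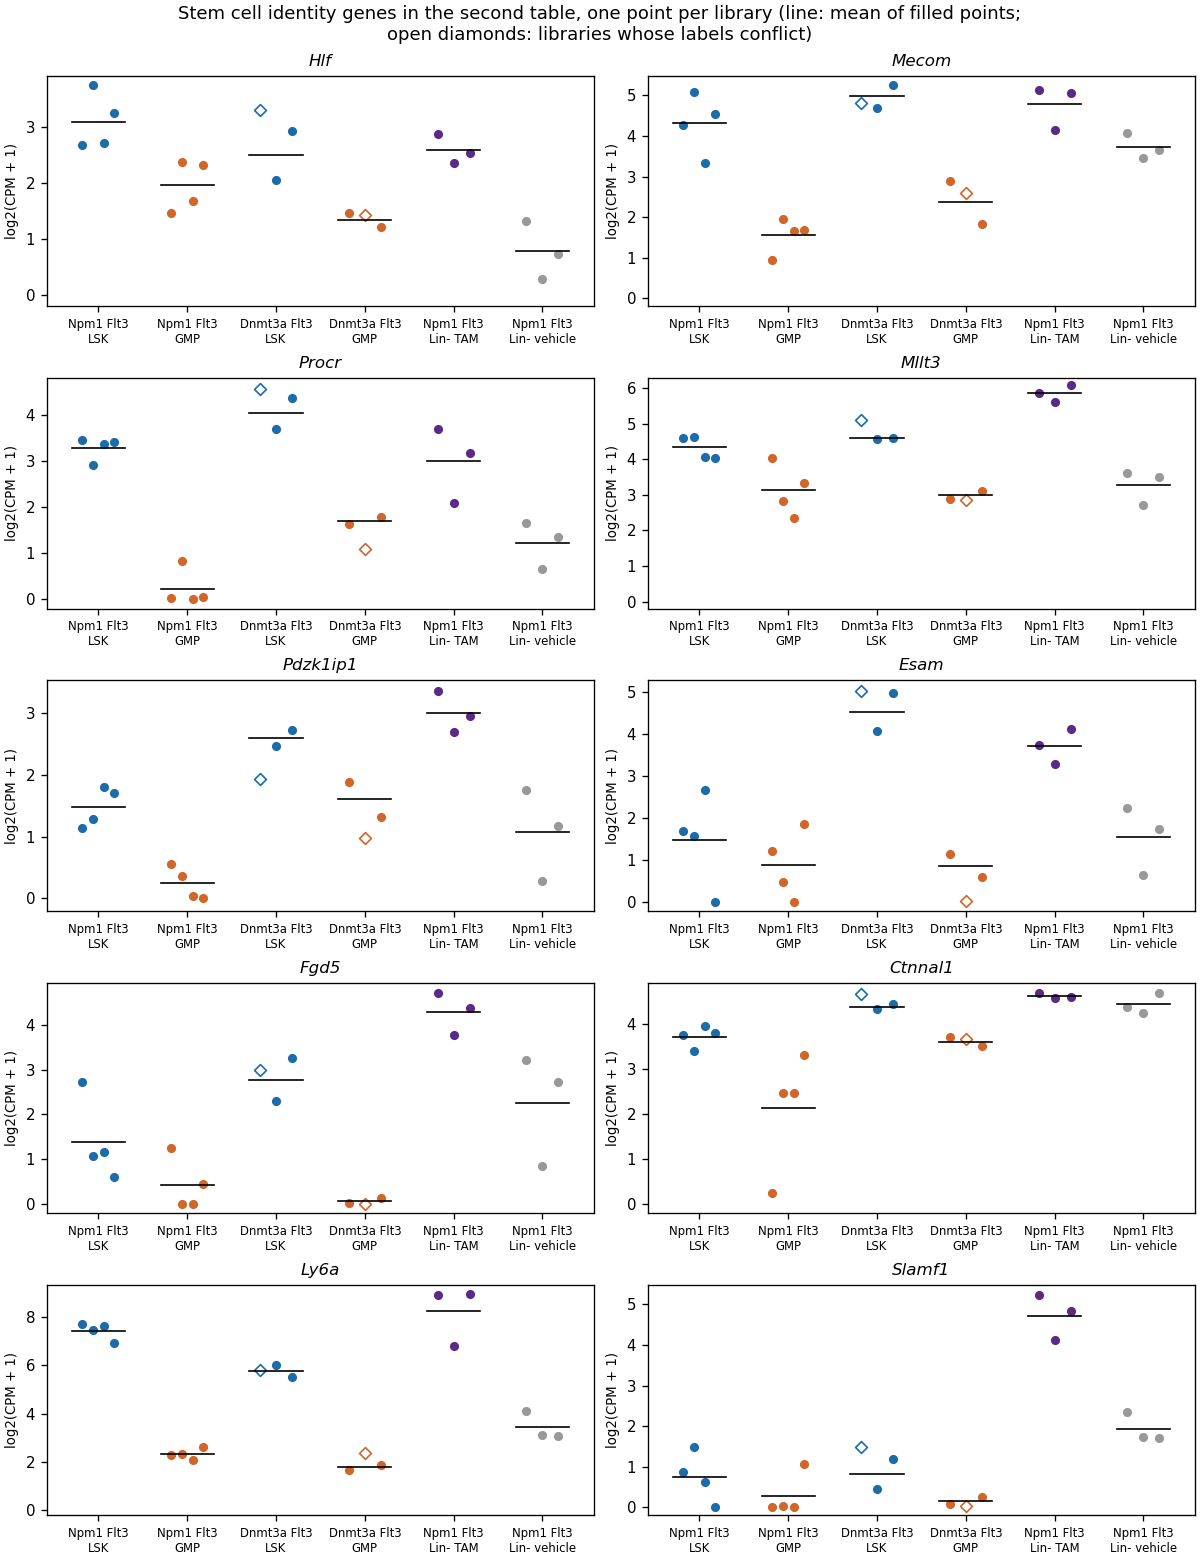
Levels of the 10 genes in every library of the Npm1 Flt3 and Dnmt3a Flt3 table as log2(CPM + 1), with LSK left of GMP and TAM left of vehicle. Filled points are libraries, lines are means of the filled points, and open diamonds are the 2 libraries with conflicting labels. Esam in LSK is higher in Dnmt3a Flt3 than in Npm1 Flt3 libraries, and Ly6a in LSK is higher in Npm1 Flt3 libraries.

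Npm1 Flt3 and Dnmt3a Flt3 LSK cells differed past the threshold in 1 of the 10 genes. Ly6a had 208.5, 174.1, 196.0 and 121.5 CPM in Npm1 Flt3 LSK, against 62.5 and 44.7 CPM in Dnmt3a Flt3 LSK, and was higher by 1.74 ± 0.29 (adjusted p = 0.00142), where 9.23% of all genes were higher. Esam had 2.21, 2.00, 5.35 and 0.0103 CPM in Npm1 Flt3 LSK, against 15.7 and 30.2 CPM in Dnmt3a Flt3 LSK, groups that do not overlap, as for 22.4% of all genes in that direction. Its change of -3.21 ± 1.50 did not pass (adjusted p = 0.187). Procr, Pdzk1ip1 and Ctnnal1 also had every Npm1 Flt3 LSK library below both Dnmt3a Flt3 LSK libraries without passing. In GMP edgeR called 0 of 10 genes, where 15.7% of all genes were called, with 4 at an unadjusted p under 0.05 and 1 called by DESeq2. Procr had 0.0202, 0.785, 0 and 0.0343 CPM in Npm1 Flt3 GMP, against 2.11 and 2.45 CPM in Dnmt3a Flt3 GMP (-3.63 ± 1.21, adjusted p = 0.0566). With the conflicting libraries back, edgeR called Procr (-3.36, adjusted p = 0.0335), Pdzk1ip1 (-3.16, adjusted p = 0.048) and Mecom (-1.30, adjusted p = 0.0395) lower in Npm1 Flt3 GMP. The share of all genes called in that fit is not given here, so these calls stand without a background.

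The last contrast asked how the genes stood in Lin- progenitors after TAM, given to remove the mutant Flt3 allele. How far the allele was removed is not measured by these counts. No mice without that allele were given TAM, so TAM itself and removal of the allele cannot be told apart. In CPM, 9 of the 10 genes were higher in all TAM libraries than in all vehicle libraries, which held for 60.0% of all genes. In the fit with TMM scaling 4 rose, where 10.1% of all genes rose, and 1 fell, where 21.3% fell. The 4 that rose were Ly6a, Slamf1, Mllt3 and Esam, and Ctnnal1 fell. The median change of the 10 genes was 1.49, against 0.56 for all genes tested.

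Ly6a had 477.8, 111.1 and 496.6 CPM after TAM, against 16.1, 7.72 and 7.39 CPM after vehicle, a rise of 3.93 ± 0.46 (adjusted p = 4.15e-07). Slamf1 had 36.4, 16.3 and 27.7 CPM after TAM, against 4.10, 2.33 and 2.28 CPM after vehicle, a rise of 2.01 ± 0.47 (adjusted p = 0.00118). Mllt3 had 57.3, 47.5 and 67.5 CPM after TAM, against 11.2, 5.56 and 10.3 CPM after vehicle, a rise of 1.54 ± 0.37 (adjusted p = 0.00164). For all 3 genes the lowest TAM library was well above the highest vehicle library. Esam had 12.4, 8.79 and 16.4 CPM after TAM, against 3.75, 0.561 and 2.32 CPM after vehicle, and rose by 1.49 ± 0.57 (adjusted p = 0.0464), a call lost in each of 5 fits without TAM replicate 1, 2 or 3 or vehicle replicate 2 or 3 (adjusted p = 0.0515 to 0.236).

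Hlf had 6.31, 4.13 and 4.81 CPM after TAM, against 1.50, 0.222 and 0.661 CPM after vehicle, and its change of 1.67 ± 0.67 did not pass (adjusted p = 0.0546). Pdzk1ip1 had 9.23, 5.43 and 6.71 CPM after TAM, against 2.36, 0.213 and 1.25 CPM after vehicle (1.50 ± 0.65, adjusted p = 0.0736). Procr had 12.1, 3.26 and 8.08 CPM after TAM, against 2.15, 0.58 and 1.57 CPM after vehicle (1.34 ± 0.61, adjusted p = 0.0906). These 3 genes thus separated by library without passing the test. Fgd5 had 25.1, 12.6 and 19.8 CPM after TAM, against 8.33, 0.793 and 5.65 CPM after vehicle (0.95 ± 0.53, adjusted p = 0.153). With the title number as a block, 8 genes were called, 7 higher, where 17.0% of all genes were, and 1 lower, where 23.8% were. Hlf (1.84, adjusted p = 0.0262), Pdzk1ip1 (1.79, adjusted p = 0.0272) and Fgd5 (1.25, adjusted p = 0.0436) joined those that rose. That block treats TAM and vehicle libraries of one number as a pair, which no label states, so these 3 calls rest on an assumed pairing.

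Mecom and Ctnnal1 depended on the scaling. Mecom had 33.9, 16.8 and 32.4 CPM after TAM, against 15.8, 10.0 and 11.5 CPM after vehicle, and its fitted change was -0.05 ± 0.39 (adjusted p = 0.925) with TMM but 1.16 (adjusted p = 0.0316) with library size alone. Ctnnal1 had 24.9, 23.0 and 23.2 CPM after TAM, against 19.9, 18.0 and 24.6 CPM after vehicle, and fell by 1.02 ± 0.37 (adjusted p = 0.0377) with TMM but changed by 0.19 (adjusted p = 0.562) with library size alone. TMM factors were 1.32 to 1.67 for TAM and 0.476 to 0.865 for vehicle. The median of all genes moved by 0.56 with TMM, by 0.30 with median-ratio factors and by 1.64 with library size alone, so that relative to it Mecom and Ctnnal1 were below the median gene under all 3. With library size alone 9 genes rose, where 36.8% of all genes rose, and 0 fell, where 8.33% fell. The call for Ctnnal1 was also lost without TAM replicate 1 or 3 or vehicle replicate 3 (adjusted p = 0.12 to 0.137), and that for Mllt3 with median-ratio factors (1.23, adjusted p = 0.0557).

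**Figure D4:**
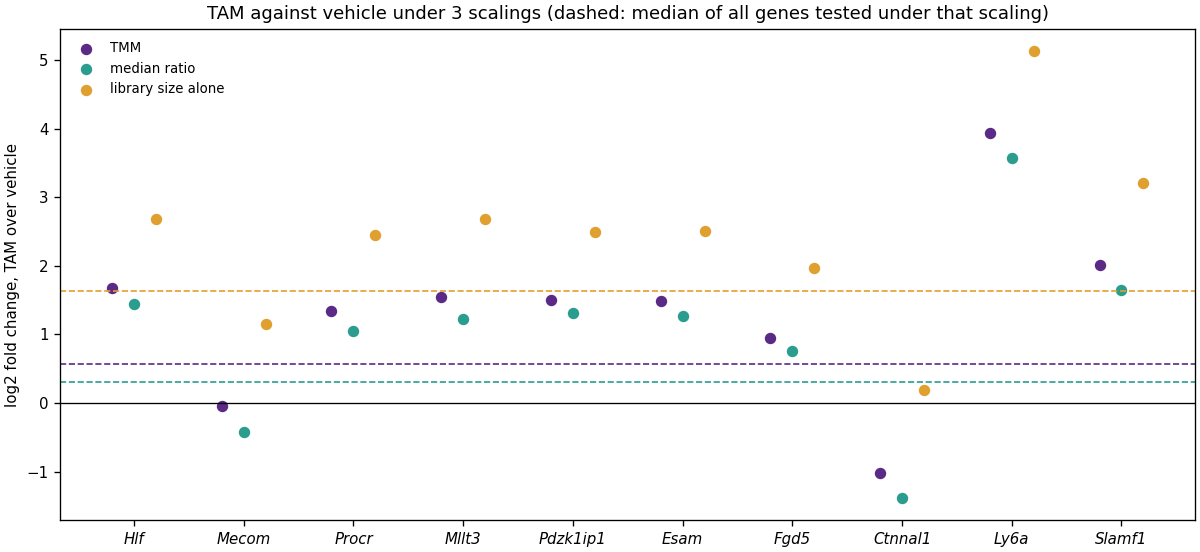
Log2 fold change of each gene in TAM over vehicle under TMM, median-ratio and library-size scaling in edgeR, with dashed lines at the median of all genes tested under each scaling. Ly6a is 3.93 with TMM and Mecom and Ctnnal1 lie below the dashed line under every scaling.

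Markers of other cells moved with the TAM contrast, and their part in these changes was not tested. Macrophage markers rose in 7 of 8 tested, with sums of 740 to 1276 CPM after TAM, against 53.6 to 76.9 CPM after vehicle, and stromal genes in 5 of 6, with sums of 170 to 473 CPM after TAM, against 24.8 to 37.5 CPM after vehicle. Of 10 endothelial genes 6 rose and 2 fell, with sums of 229.5 to 332.5 CPM after TAM, against 173.8 to 234.5 CPM after vehicle, and Cdh5 was at 6.87 to 23.6 CPM after TAM, against 0.551 to 3.41 CPM after vehicle. Interferon-induced genes, to which Ly6a belongs by its known response to interferon, rose in 14 of 16, with sums of 2667 to 5694 CPM after TAM, against 739 to 956 CPM after vehicle. Dendritic cell genes rose in 8 of 8, with sums of 28145 to 35578 CPM after TAM, against 2414 to 4974 CPM after vehicle. Erythroid and megakaryocyte genes rose in 5 of 10 tested and fell in 1, with sums of 634 to 797 CPM after TAM, against 117 to 145 CPM after vehicle, and lymphocyte genes rose in 4 of 10 and fell in 1, with sums of 362 to 606 CPM after TAM, against 127 to 155 CPM after vehicle. Granule genes fell in 6 of 7 tested, with sums of 256 to 732 CPM after TAM, against 5222 to 6316 CPM after vehicle.

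A list of 24 other genes known from stem cells and early progenitors was read in the same contrasts. In Flt3 LSK against WT LSK 11 of 20 tested fell and 3 rose. Among those with the smallest p were Lmo2 (-1.72 ± 0.09), a bridging factor of the stem cell transcription complex, Gata2 (-2.92 ± 0.20), its zinc-finger partner, and Meis1 (-1.59 ± 0.14), a homeobox factor. The 3 that rose were Thy1, Mycn and Ifitm1. In TAM against vehicle 4 of 23 rose and 4 fell, so this list did not move one way. Clec1a (2.84 ± 0.54) and Gfi1b (1.43 ± 0.44), a transcriptional repressor in stem cells and megakaryocytes, were among those that rose, and Ifitm1 (-7.20 ± 0.50) and Cd34 (-4.44 ± 0.44), the sialomucin of progenitors, among those that fell.

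Across the 10 group means of the WT and Flt3 table, where 14 pairs of LSK and GMP libraries share a sample code, each gene was matched to the gene most like it in log2 CPM among 6472 genes. Pdzk1ip1 was most like Gstm5 (Pearson r = 0.961), Esam like Vamp5 (0.974), Slamf1 like Gcnt2 (0.98) and Ly6a like Pim2 (0.984). Hlf was most like Fam26f (0.932), Mecom like Med7 (0.935), Mllt3 like Uba7 (0.934) and Procr like Ncoa7 (0.86), while Ctnnal1 was most like Muc13 (0.947) and Fgd5 like Zfp367 (0.936). Among themselves Hlf and Esam were the closest pair (r = 0.91), and Mllt3 and Ctnnal1 the least alike (r = -0.08). Each r is a description over 10 points.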

How the data were processed

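RNA-seq counts were read for 50 libraries in 2 tables of 33924 gene symbols. The authors deposited unnormalised read counts for each gene. The submitters' processing notes name STAR, featureCounts and the mm10 build, and their versions, annotation and strand setting are not given in the sources used here. Per the labels' protocols, sorted cells were lysed, their RNA was column-purified, and one of 2 kits made each library, a paired-end one or a single-end one that reads 3′ ends; which kit made which sample is not stated.

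Levels are counts divided by the library total. Tests used R 4.3.3 and edgeR 4.0.16: filterByExpr on the groups in a fit, TMM scaling, the robust quasi-likelihood F test and Benjamini-Hochberg adjustment over all genes tested, with a threshold of 0.05. Standard errors were back-calculated as |log2 fold change| / √F. WT and Flt3 LSK (15 libraries) and GMP (15) were fitted apart, slopes on 12 Flt3 libraries, LSK against GMP on all 30, the sorted Npm1 Flt3 and Dnmt3a Flt3 libraries on 12, and TAM against vehicle on 6. The near-empty library of 1942 counts stayed in the edgeR fits. Floors were set at 3 counts and, like the exact 95% interval, cover counting error only. Replicates of a group differed by a chi-square of at least 2.26 for each degree of freedom, and none was treated as a copy of another. All fits but the slope in Flt3 GMP were run on simulated counts, for a single contrast each, and the outcome is not given here.

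The 10 genes, the 11 further lists and the tests were chosen with earlier results of these data known. Of 129 listed genes, 127 were found. Genes named were the 10, Flt3, up to 4 genes per further list with the smallest p in a contrast, and the gene most like each of the 10 among genes averaging at least 4 in log2 CPM; single markers of other cells and those named because a count was 5 or fewer were picked after their values were seen. One gene that this rule names is not reported here. Alternatives were DESeq2 1.42.0, median-ratio factors, no filter or one at 5 CPM, a block on replicate or code numbers, other sets of libraries, and leaving out each library.

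No label pairs the TAM and vehicle libraries, whose sample codes all differ, and the block on title numbers assumes such pairs. The correlation of deviations from group means was 0.111 to 0.304 over 3 pairs of one title number. Pairs of unlike numbers were not set beside it, so it does not establish the pairing. For LSK and GMP of one sample code it was -0.0552 to 0.209 over 14 pairs of the WT and Flt3 table and -0.0164 to 0.314 over 4 pairs of the second table.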

Additional observations from a re-analysis of the deposited data

Results flagged for a closer look

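Procr, Mllt3 and Pdzk1ip1 differed between the sorted populations in what the Flt3 mutation was accompanied by: the change in LSK minus the change in GMP was -3.87 for Procr, -3.73 for Mllt3 and -2.37 for Pdzk1ip1 in edgeR's test of that difference. The calls for Procr and Pdzk1ip1 were lost without single Flt3 GMP libraries, as given above. In the WT GMP libraries together Procr held 4 counts and Mllt3 held 8.

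Of 20 sets of 4 libraries examined for a library far from the rest, 3 held one. The limit used gives about 1 in 20 by chance for independent, normally spread values. These sets share libraries and include very low levels, so that rate need not hold here. Fgd5 was at 5.65 CPM in Npm1 Flt3 LSK replicate 1, against 0.527 to 1.24 CPM in the other 3 libraries. Procr was at 0.785 CPM in Npm1 Flt3 GMP replicate 2 and at most 0.0343 CPM in the others. Slamf1 was at 1.10 CPM in Npm1 Flt3 GMP replicate 4 and at most 0.0291 CPM in the others.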

How the results depend on the processing

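Of 405 counts of called genes under alternatives, 363 stayed within 1.5 times the reported count and 42 moved. Of 3294 values of single genes, 3154 kept their side of the threshold, 79 lost their call and 59 gained one. Of the 3154, 27 changed sign with no call in either fit. Another 2 changed sign with a call in the reported or the alternative fit. The cause was not tested except where fewer libraries or genes entered by construction. The 2 were Mecom (1.16) and Ctnnal1 (0.19) in TAM with library size alone, which called 9 genes there and 9 in Flt3 LSK at 2 weeks. DESeq2 called 1 in Flt3 GMP, 0 in 4-week GMP, 1 for the LSK slope, 0 for the GMP slope, 3 in Dnmt3a Flt3 LSK against GMP and 1 in Npm1 against Dnmt3a Flt3 GMP. Without the near-empty library it called 2 in Flt3 GMP, 0 in 4-week GMP and 1 for the GMP slope. The GMP slope called 0 without the 2-week libraries. Directions in Flt3 GMP, 2 higher and 1 lower, became 1 and 3 with all 30 libraries in one fit and 2 and 2 without a filter. A filter at 5 CPM gave 2 in Dnmt3a Flt3 LSK against GMP and 1 in Npm1 against Dnmt3a Flt3 GMP, and the 2 conflicting libraries, once back, gave 3 in each. Counts in this section come without the share of all genes called, except where a share is stated above. The replicate block gave 8 calls for TAM and changed no other count by over 1.5 times.

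With each library left out in turn, calls ranged from 7 to 8 in Flt3 LSK, 5 to 6 at 2 weeks, 6 to 8 at 4 weeks, 7 to 7 at 6 weeks and 3 to 7 at 8 weeks. They ranged from 1 to 3 among times, 1 to 3 in Flt3 GMP, 0 to 3 in 4-week GMP, 0 to 1 for the LSK slope, 1 to 2 for the GMP slope, 8 to 8 for WT LSK against GMP, 4 to 5 for Flt3 LSK against GMP and 2 to 3 for the difference of the Flt3 changes. They ranged from 2 to 4 for Npm1 Flt3 LSK against GMP, 1 to 1 for Dnmt3a Flt3, 1 to 1 for Npm1 against Dnmt3a Flt3 LSK, 0 to 1 in their GMP and 3 to 7 for TAM. Depth limits the WT and Flt3 table most: Fgd5 did not pass the default filter there, nor did 7 genes in GMP alone.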

Other observations

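The 2 libraries whose titles and sample codes name different cell types were placed by their levels beside both groups. Dnmt3a Flt3 LSK replicate 1 had 27.3 CPM of Mecom, 22.9 CPM of Procr, 31.4 CPM of Esam, 54.8 CPM of Ly6a and 1.82 CPM of Slamf1, and Dnmt3a Flt3 GMP replicate 2 had 5.09 CPM of Mecom, 1.13 CPM of Procr, 0.026 CPM of Esam, 4.19 CPM of Ly6a and 0.013 CPM of Slamf1. Ly6a was at 62.5 and 44.7 CPM in the other 2 Dnmt3a Flt3 LSK libraries and at 2.21 and 2.70 CPM in the other 2 GMP libraries.

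A list of 10 lymphoid-primed genes, which mark multipotent progenitors that have left the stem cell state, was read in Flt3 LSK against WT LSK. Of 7 tested 1 was higher and 2 were lower, with a median change of -0.37, against -0.00 for all genes. The summed level of the list went the other way. It was 1226 to 1471 CPM at 2 weeks, 1866 to 2175 CPM at 4 weeks, 1783 to 2001 CPM at 6 weeks and 1631 to 2025 CPM at 8 weeks in Flt3 LSK, against 1168 to 1408 CPM in WT LSK. Cd48 alone had 1234 to 1369 CPM in Flt3 LSK at 4 weeks, against 349 to 480 CPM in WT LSK. The part of these genes was not tested.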
